A study of Capra hircus with 3 samples.

Results

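The 5 keratin genes KRT25, KRT27, KRT28, KRT71 and KRT73 were followed across fetal skin of the Cashmere goat (Capra hircus). They were chosen by name as keratins of the inner root sheath and are 5 of the 16739 genes in the expression table. The inner root sheath is the rigid tube of the hair follicle that surrounds the growing hair shaft and moulds it, and it is lost before the hair leaves the skin. Keratin filaments are built from pairs of one type I and one type II keratin. KRT25, KRT27 and KRT28 are type I keratins and KRT71 a type II keratin of all layers of the sheath, whereas the type II keratin KRT73 is known from its cuticle, the layer that faces the shaft.

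Dorsal skin of Northern Shaanxi White Cashmere Goat fetuses was profiled at embryonic days 60, 90 and 120 (E60, E90 and E120) by droplet single-cell RNA sequencing of the 3′ ends of transcripts. Each stage was 1 library of cells pooled from more than 1 fetus, with no treatment or genetic change named in the labels. E60 and E90 cells came from whole skin treated with collagenase IV, while E120 cells came from dissected follicles dissociated with TrypLE, so stage and dissociation cannot be told apart. With 1 library per stage there was no replicate and no test was made, and every difference below compares these libraries.

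The libraries held 6849, 6931 and 6896 cells at E60, E90 and E120, with 65049552, 30277663 and 93403291 unique molecular identifiers (UMIs, one per captured transcript). The median cell had 8579, 3714 and 13064 UMIs, and the median mitochondrial share was 4.52%, 11.1% and 5.26%. Between 9 and 13 cell barcodes were shared by any pair of libraries. Levels are counts scaled to a total of 1000000 UMIs (CPM) over a summed group of cells. Exact 95% intervals follow in parentheses, and they reflect counting error alone. UMIs tag transcript ends, so counts were not divided by gene length, and differences between genes in capture were not measured. How reads shared by similar keratins were counted is not given in the sources used here.

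All 5 keratins were near or below detection at E60 and E90 and were high at E120. KRT25 went from 8 UMIs through 99 to 164603 over the successive stages, or 0.123, 3.27 and 1762 CPM. KRT28 had 4, 69 and 33675 UMIs, or 0.0615, 2.28 and 361 CPM. KRT27 had 0 UMIs in both earlier libraries and 161000 at E120, or 1724 CPM. These type I genes thus differed at E90, where KRT25 and KRT28 were counted and KRT27 was not.

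Of the type II genes, KRT71 was not counted at E60, had 8 UMIs at E90 (0.264 CPM) and reached 374769 at E120, or 4012 CPM. KRT73 had 0, 0 and 1511 UMIs, or 16.2 CPM at E120. The exact upper limit of a count of 0 is 0.0567 CPM at E60 and 0.122 CPM at E90. A floor of 3 counts, used below for folds, is slightly lower, at 0.0461 CPM at E60 and 0.0991 CPM at E90. KRT71 alone supplied 51.0% of the UMIs of the 5 keratins at E120, against 22.4% for KRT25, 21.9% for KRT27, 4.58% for KRT28 and 0.205% for KRT73. Type I and type II genes were close to balanced in sum, with 359278 and 376280 UMIs.

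From E90 to E120 the level of KRT25 was 539-fold higher (443 to 663), of KRT28 158-fold (125 to 203) and of KRT71 15186-fold (7707 to 35174). Against a floor of 3 counts over the E90 library, KRT27 was 17397-fold higher and KRT73 163-fold. The exact upper limit of a count of 0 lies above this floor and would give smaller folds. All 5 were at least 4-fold higher on the log2(CPM + 1) scale, as were 2.67% of the 6357 genes that reached 10 CPM in either library. All 5 entered that count only through E120. KRT27, KRT71 and KRT73 were at 0, 0.264 and 0 CPM at E90. Reaching 10 CPM already put these genes past 4-fold, so the filter set their calls. Summed, the 5 keratins differed by 10.18 on the log2 scale. The median of all 6357 genes was −0.24. From E60 to E90 KRT25 was 26.6-fold higher (13.0 to 63.3) and KRT28 37.1-fold (13.8 to 140), but 0 of the 5 reached 10 CPM and entered the count, in which 7.23% of 6278 genes were at least 4-fold higher and 2.33% lower.

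**Figure D1:**
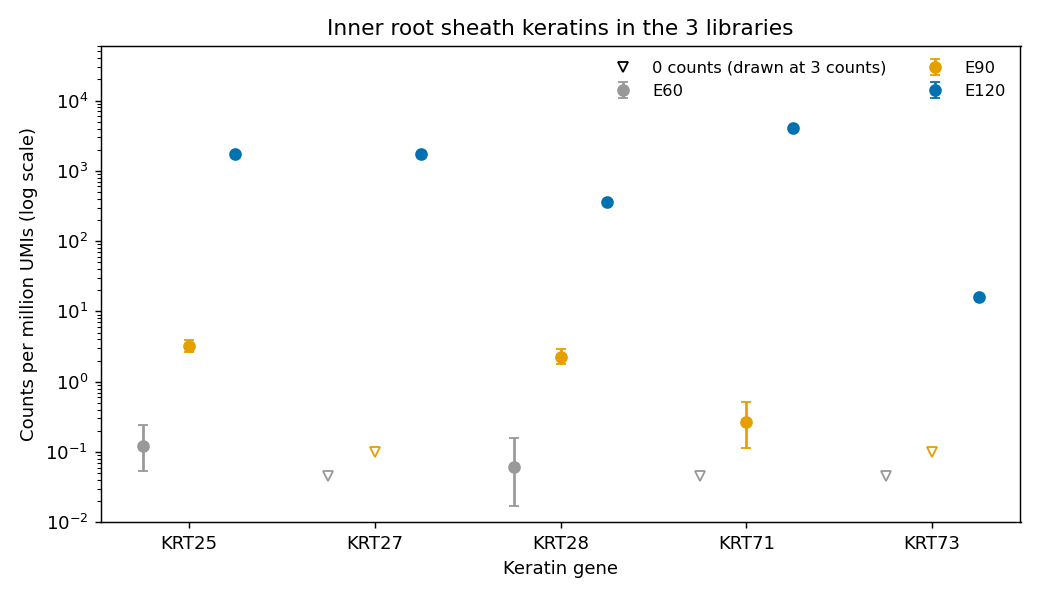
Level of each keratin in each library in CPM on a log axis, with exact 95% Poisson intervals. Open triangles mark 0 counts and are drawn at the level of 3 counts. The E120 points lie between 16.2 CPM for KRT73 and 4012 CPM for KRT71, and every E60 and E90 value is below 4 CPM.

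The E90 counts were thinly spread, with few cells above 1 UMI. KRT25 was counted in 77 of 6931 cells (1.11%), of which 71 had 1 UMI, 3 had 2 UMIs and 3 had more. Those last cells had 10, 9 and 3 UMIs of KRT25. All 3 also carried UMIs of GATA3, a transcription factor needed to form the inner root sheath, with 4, 8 and 2 UMIs respectively. They also had 2, 7 and 2 UMIs of the basal keratin KRT14 and 8, 0 and 3 of the shaft keratin KRT85. Their depths were 8647, 11077 and 8898 UMIs, and GATA3 was at 165 CPM over the whole E90 library. None of the 3 had a UMI of another of the 5 keratins, so no E90 cell combined a type I and a type II member at more than 1 UMI.

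KRT28 was in 67 cells at E90, 65 of them with 1 UMI and 2 with 2 UMIs. KRT71 was in 8 cells with 1 UMI each. The summed level was 19.5 CPM (12.7 to 28.5) in E90 cluster 7, whose leading genes include KRT85 and the cornification protease CASP14. Of the 26 UMIs there, 1 cell held 9 and another 3. The level was 13.5 CPM (4.95 to 29.4) in the endothelial-like cluster 15 and 12.5 CPM (8.12 to 18.5) in cluster 4, so the 3 intervals overlap. In the 1020 E90 cells assigned to classes outside the epithelium, KRT25 was at 1.94 CPM, KRT28 at 0.971 CPM and KRT71 at 0.388 CPM. The whole library was at 3.27, 2.28 and 0.264 CPM, so single UMIs were spread inside and outside the epithelium. E60 had 12 UMIs of the 5 in 11 cells.

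At E120 the UMIs were concentrated in few cells although nearly every cell had some. The median cell had 5 UMIs of the 5 keratins, the cell at the 90th percentile 87.5, the cell at the 99th percentile 2041 and the highest cell 31748. In one cell they made up 40.5% of all UMIs. The 69 cells in the highest 1% held 54.2% of the UMIs, and the 690 cells in the highest 10% held 94.5%. Most cells thus had few UMIs of the 5, and a small group carried nearly all.

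Clusters of E120 cells were made without any keratin or keratin-associated protein gene, so that the 5 keratins did not shape them. Of the 24 clusters, cluster 5 (504 cells) held 87.2% of all E120 UMIs of the 5 and cluster 3 (536 cells) held 6.41%. The summed level was 68498 CPM (68330 to 68666) in cluster 5 and 5929 CPM (5875 to 5983) in cluster 3. Their median cells were lower, at 32748 and 3457 CPM. Among clusters not placed outside the epithelium, these were set apart by a limit of 5000 CPM that was chosen after the values were seen. The other 16 such clusters lay between 331 and 1590 CPM, with a median of 508 CPM and 3 to 6 UMIs in their median cells.

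The clusters were checked against other genes. GATA3 was at 757 CPM in cluster 5 and 798 CPM in cluster 3, against a median of 21.8 CPM over clusters. PADI3, a peptidylarginine deiminase that modifies sheath proteins, was at 450 CPM in cluster 5 and 94.7 CPM in cluster 3, against a median of 18.2 CPM. PADI1, a related enzyme, was at 39.1 and 3.65 CPM. The listed sheath marker TCHHL1, with 156 UMIs at E120, went the other way. It was at 0.534 and 0 CPM in clusters 5 and 3 and highest in cluster 20, at 33.4 CPM. Of 7 sheath markers in the table other than the 5 members, 3 reached at least 2-fold the median in at least 10% of cells of cluster 5 and 2 did so in cluster 3.

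Cluster 5 was also led by SBSN and KRT1, genes of suprabasal keratinocytes, the layers above the basal layer of the epidermis. Of 6 suprabasal markers, 5 passed the same limits in cluster 5, where they summed to 4588 CPM, and 4 in cluster 3, with 669 CPM, against a median of 181 CPM. Cell type names were given only to clusters outside the epithelium, so both clusters kept their numbers. Markers of endothelial, myeloid and mast cells summed to at most 5.91 CPM in either cluster, and those of fibroblasts and mural cells to at most 23.9 CPM. The sheath markers TCHH and TGM3 were not found under their symbols.

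Every one of the 5 keratins was higher in cluster 5 than in cluster 3, but by different factors. KRT25 was at 14824 and 1997 CPM, a 7.42-fold difference (7.30 to 7.55), and KRT28 at 2825 and 502 CPM, 5.62-fold (5.44 to 5.82). KRT27 was at 15707 and 464 CPM, 33.9-fold (32.8 to 35.0). Of the 146999 KRT27 UMIs of cluster 5, 109799 lay in 65 cells with at least 50000 CPM of KRT71. The KRT27 level and share of cluster 5 thus rest largely on these cells, and the interval does not cover differences between cells. Among the type II genes, KRT71 differed 11.9-fold, from 35018 to 2946 CPM, and KRT73 6.39-fold (5.40 to 7.61), from 124 to 19.4 CPM. KRT27 thus made up 22.9% of the 5 in cluster 5 and 7.83% in cluster 3, while KRT25 made up 21.6% and 33.7%. KRT71 took nearly the same share, 51.1% and 49.7%. The cell cycle genes TOP2A, CDK1, CENPF and NUSAP1 summed to 21.6 CPM in cluster 5 and 1114 CPM in cluster 3. The part of the cell cycle in the keratin difference was not tested.

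**Figure D2:**
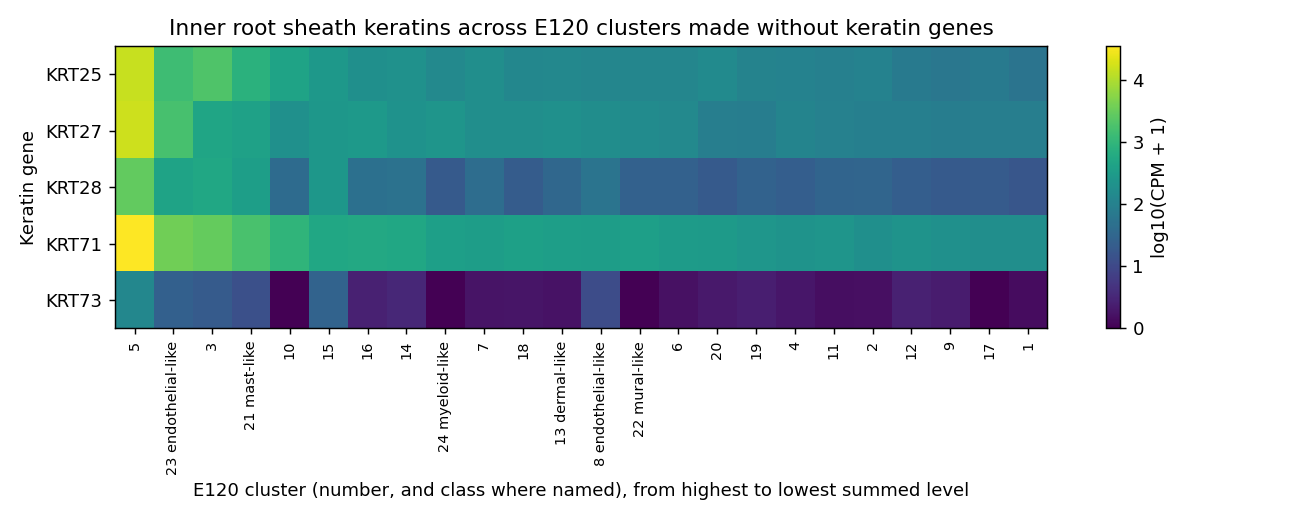
Level of the 5 keratins in the 24 E120 clusters, as log10(CPM + 1) by colour, with clusters ordered by the summed level. Cluster 5 is highest for each keratin, at 35018 CPM for KRT71, and KRT73 is at 0 in several of the other clusters.

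Cells outside the epithelium gave the background. At E120, 781 cells in endothelial-like, dermal-like, mast-like, mural-like and myeloid-like clusters had a summed level of 1667 CPM (1633 to 1701). Without the cells of highest doublet score, 677 cells remained at 709 CPM (684 to 735), and the median cell of the 781 had 664 CPM and 4 UMIs. An endothelial-like cluster of 30 cells stood apart at 7108 CPM, and all of its cells were among the 6% with the highest doublet scores. The 99 mast-like cells were at 3285 CPM, with a median cell of 1259 CPM at a median depth of 3751 UMIs. Among them 3 cells had at least 100 UMIs of the 5, and 12.1% had the highest doublet scores. Dermal-like, mural-like and myeloid-like cells were at 703, 664 and 754 CPM. The part of doublets in these levels was not tested for each class.

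The share of cells with a UMI separated little between the background and most of the epithelium. KRT71 was counted in 88.7% of the 781 cells outside the epithelium, in 89.4% of 5075 cells in the other 16 clusters and in 100% of cluster 5, at median depths of 5739, 13541 and 17228 UMIs. KRT27 was in 65.7%, 68.3% and 99.2%, and KRT25 in 52.9%, 57.6% and 100%. KRT28 was in 19.7%, 22.05% and 91.1%, and KRT73 in 0.768%, 1.40% and 42.3%. The pooled shares of KRT71, KRT27 and KRT25 in the other 16 clusters lay near those outside the epithelium. Single clusters differed, with KRT25 in 47.7% of cells of cluster 16 and 68.8% of cluster 2. What part of these shares was background was not tested.

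With each cell thinned to 2000 UMIs, KRT71 was in 55.2% of cells outside the epithelium, 36.7% of the other 16 clusters and 99.8% of cluster 5. KRT28 was in 6.53%, 5.32% and 78.8%, and KRT73 in 0.384%, 0.296% and 16.9%. For all 3 genes the thinned share was lower in the other clusters than outside the epithelium. Before thinning, the median cell of both groups had 4 UMIs of the 5, at median depths of 13541 and 5739 UMIs. Thinning keeps a smaller part of the UMIs of a deeper cell, so these shares cannot place the other clusters against the background. No cell was left out by thinning, since the lowest total in any E120 cell was 2475 UMIs.

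The proportions of the 5 keratins in the background were set beside those of cluster 5 and of the whole E120 library. In the 677 cells outside the epithelium, without the highest doublet scores, KRT71 made up 52.4%, KRT27 25.8%, KRT25 17.4%, KRT28 4.33% and KRT73 0.0672% of the UMIs of the 5. Cluster 5 had 51.1%, 22.9%, 21.6%, 4.12% and 0.181% in the same order, and the whole library 51.0%, 21.9%, 22.4%, 4.58% and 0.205%. The shares of KRT71 and KRT28 lay close together. Those of KRT25 and KRT73 were lower in the background, where KRT73 had 2 UMIs. Cluster 3, with 7.83% KRT27, stood apart from all of these.

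**Figure D3:**
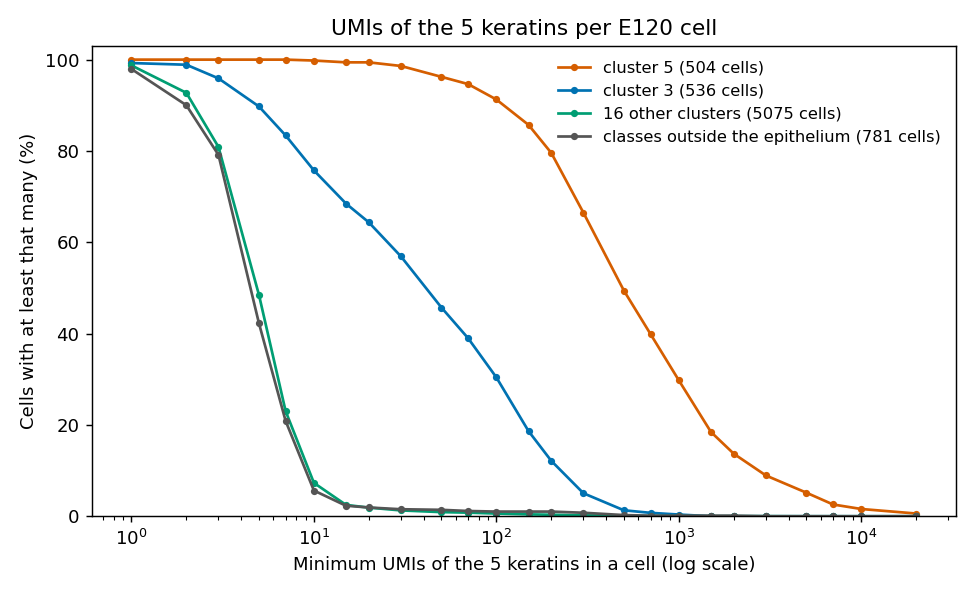
Share of E120 cells with at least a given number of UMIs of the 5 keratins, on a log axis, for cluster 5, cluster 3, the other 16 clusters and the classes outside the epithelium. The curves of the last 2 groups lie close together, whereas 91.3% of cluster 5 and 30.4% of cluster 3 had at least 100 UMIs.

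Combinations of keratins in single cells depended on the number of UMIs asked for. At 1 UMI, 84 of 6896 E120 cells had none of the 5 and 312 (4.52%, 4.05 to 5.04) had all 5, while thinning to 2000 UMIs left 94 cells (1.36%) with all 5. The most frequent combination at 1 UMI was KRT25 with KRT27 and KRT71, in 1670 cells, a set that the background holds as well. Combinations were therefore also counted at 10 UMIs of each gene, a limit chosen after the values were seen. At that limit 976 cells had at least 1 of the 5.

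Of these 976 cells, 824 (84.4%) had at least 10 UMIs of both a type I and a type II keratin, 97 of type I only and 55 of type II only. The largest group, 373 cells, had KRT25, KRT27, KRT28 and KRT71 without KRT73. A further 155 cells had KRT25, KRT27 and KRT71, 144 had KRT25 and KRT71, and 87 had KRT25, KRT28 and KRT71. KRT25 stood alone in 77 cells and KRT71 in 55. All 5 were in 43 cells.

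The combinations were nested to a large extent. Of 592 cells with at least 10 UMIs of KRT27, 98.5% had as many of KRT71, and 97.5% had as many of KRT25. Of 529 cells with KRT28, 97.5% had KRT71 and 79.6% had KRT27. KRT73 reached 10 UMIs in 45 cells, and all 45 also had at least 10 of KRT25, KRT28 and KRT71. At this limit KRT27 was thus seldom without KRT71, while 66.3% of the 879 KRT71 cells had KRT27. One limit for all genes favours such nesting of rarer keratins in more abundant ones. KRT71 supplied 51.0% and KRT73 0.205% of the E120 UMIs of the 5. The part of abundance and depth in the nesting was not tested.

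The type I and type II keratins were close to balance within cells. In 661 cells with at least 100 UMIs of the 5, the ratio of type I to type II UMIs had a median of 0.912, a 5th percentile of 0.490 and a 95th percentile of 2.14. It was within 2-fold of 1 in 573 cells (86.7%), and it ran from 0.161 to 14.4. In the 155 cells with at least 1000 UMIs the median was 0.876, and 96.1% were within 2-fold of 1. No cell of either group was without type II UMIs.

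The make-up of the type I side varied more between those 661 cells. KRT25 made up a median of 25.8% of the 5 keratins in a cell (5th to 95th percentile 14.3% to 42.1%). The median was 9.58% for KRT27 (1.25% to 30.8%) and 6.87% for KRT28 (0% to 32.9%). KRT71 had a median of 52.1% (28.4% to 67.0%). KRT25 and KRT71 were in all 661 cells, whereas KRT28 was at 0 in 61 and KRT73 in 397.

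**Figure D4:**
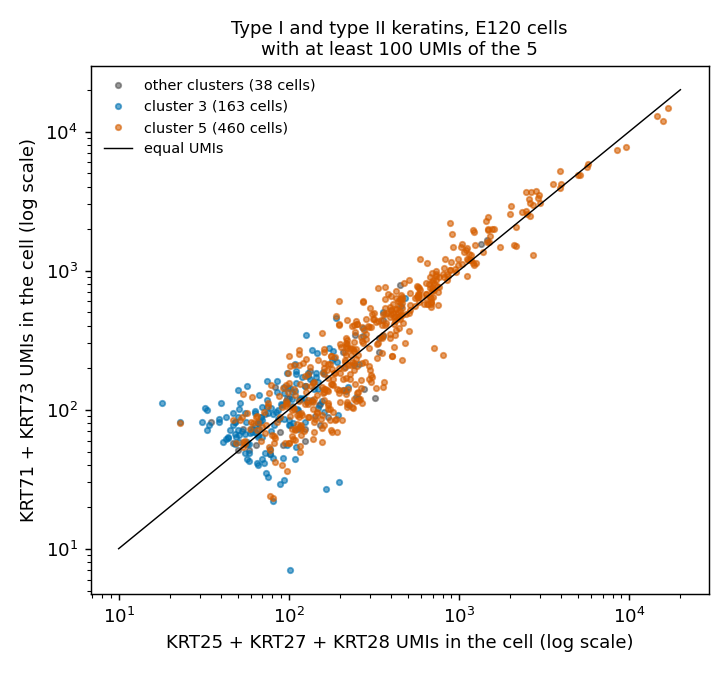
UMIs of the type I keratins (KRT25, KRT27 and KRT28) against those of the type II keratins (KRT71 and KRT73) in 661 E120 cells with at least 100 UMIs of the 5, on log axes, coloured by cluster. The line marks equal UMIs, and 573 cells lie within 2-fold of it.

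When E120 cells were ordered by their own level of KRT71, the other keratins followed different courses. The limits between the 7 groups were 500, 2000, 5000, 10000, 20000 and 50000 CPM of KRT71 and were chosen after the values were seen. The groups are ranges of 1 gene and not cell types, and between 10 and 241 cells lay within 10% of a lower limit. They held 5222, 883, 225, 201, 145, 155 and 65 cells. Clusters 5 and 3 together supplied 4.02%, 12.6% and 76.0% of the cells of groups 1, 2 and 3, and between 95.9% and 100% of each later group. The second group had a median depth of 3962 UMIs, at which few UMIs place a cell above 500 CPM, while the last 5 groups had 14296 to 28755 UMIs.

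KRT25 was higher in each successive group, at 2173, 3959, 8193, 14991 and 36325 CPM from group 3 to the last. KRT27 was at 867, 1451, 2994, 8487 and 62258 CPM, and its share of the 4 keratins other than KRT71 went from 18.5% to 62.6%. KRT28 was at 1492, 2134, 2634 and 3310 CPM and then at 915 CPM in the last group, where its median cell had 347 CPM against 2059 CPM in the group before. Its share of the 4 went from 31.9% to 0.919%. In the last group the type I side was thus mostly KRT27, and in groups 3 and 4 it was mostly KRT25 and KRT28. Group 3 also had the shaft keratins KRT35 and KRT85 at 2598 and 1458 CPM, against 471 and 672 CPM in group 4. The part of cells from other clusters in the KRT28 and KRT73 levels of group 3 was not tested.

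KRT73 peaked earlier than the others. It was at 145 and 147 CPM in groups 3 and 4, then at 111, 38.7 and 2.84 CPM (0.919 to 6.62) in the next 3. The 5 keratins together were 20.5% of all UMIs in the last group, and CPM of the other genes there are lowered by that share. The last group held 65 cells, all in cluster 5.

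Genes outside the 5 also differed along this order. GATA3 was at 874 and 990 CPM in groups 3 and 4 and at 187 CPM in the last. PADI3 went from 167 to 735 CPM and SBSN from 304 to 6793 CPM between group 3 and the last group. The 4 cell cycle genes summed to 650 and 647 CPM in groups 3 and 4 and to 151, 26.6 and 5.67 CPM in the next 3. In the first 2 groups they summed to 539 and 519 CPM, where KRT28 made up 11.02% and 16.5% of the 4 keratins other than KRT71. From group 3 on, the cell cycle genes and the shares of KRT28 and KRT73 were lower towards high KRT71, and the share of KRT27 was higher. The part of these genes in the keratin levels was not tested.

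A second order was added after these values were seen. The 1040 cells of clusters 5 and 3 were divided into 4 equal groups by SBSN, which is not a keratin. KRT27 was at 282, 523, 2000 and 24479 CPM from lowest to highest SBSN, again with the largest step at the end. KRT28 was at 426, 795, 2161 and 2929 CPM and did not turn down, and KRT73 was at 15.2, 42.5, 140 and 87.6 CPM. The lower KRT28 level was seen in the narrow last group of the KRT71 order and not in the 260 cells with the most SBSN.

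**Figure D5:**
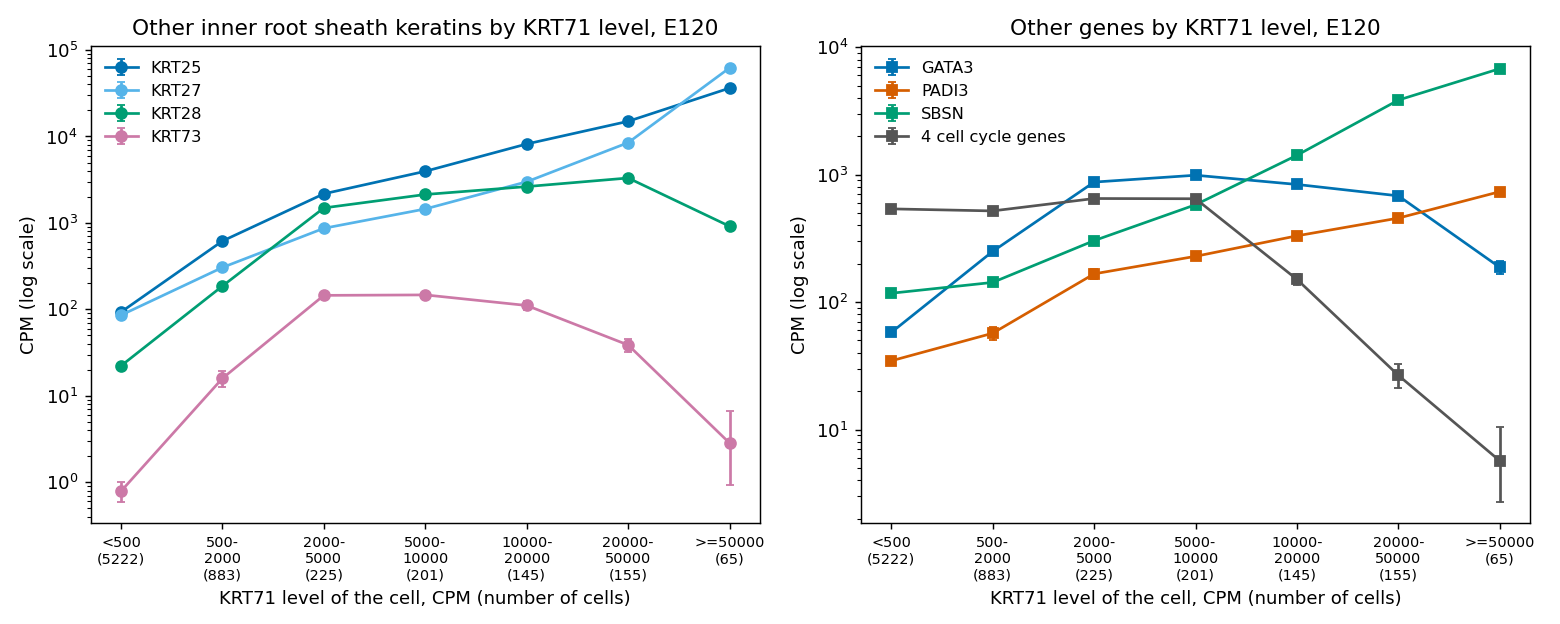
Levels of 4 keratins (left) and of GATA3, PADI3, SBSN and 4 summed cell cycle genes (right) in E120 cells grouped by their KRT71 level, in CPM on log axes with exact 95% Poisson intervals. KRT27 reaches 62258 CPM in the last group, where KRT28 is at 915 CPM and KRT73 at 2.84 CPM.

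The rarer sheath keratins appeared at different places in the KRT71 order. KRT26, a type I keratin of the sheath cuticle, had 132 UMIs at E120 and was highest in the last group, at 49.9 CPM. KRT74, a type II keratin of Huxley's layer, had 79 UMIs and was highest in group 6, at 19.9 CPM. KRT72, a type II keratin of the cuticle, had 41 UMIs and was highest in group 5, at 6.69 CPM. All 3 had 0 UMIs at E60 and E90. With so few UMIs, these peaks describe these cells only.

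KRT28 and KRT73 were also found in cluster 15 (200 cells), where the hair shaft keratins KRT35 and KRT84 were at 20151 and 3759 CPM. KRT28 was at 254 CPM and KRT73 at 26.7 CPM in this cluster, the highest of the 16 other clusters, and KRT28 made up 19.4% of the 5. Looked at after these values were seen, 16 cells with at least 10 UMIs of KRT28 held 67.5% of the cluster's UMIs of the 5. In them KRT28, by which they were picked, was at 1655 CPM. KRT73 was at 175 CPM, against 3.33 CPM in the rest of the cluster. The other members were higher in the 16 cells as well. KRT71, KRT25 and KRT27 were at 2308, 1311 and 1066 CPM, against 228, 105 and 123 CPM in the rest. GATA3 was at 516 CPM in the 16 cells, 83.7 CPM in cluster 15 and 757 CPM in cluster 5. The shaft keratins KRT35, KRT84 and KRT85 were at 14446, 2943 and 4065 CPM in the same cells, against 20151, 3759 and 5862 CPM in cluster 15 and 504, 48.7 and 358 CPM in cluster 5. Summed over the 16 cells, both sheath and shaft keratins were thus present. Of all cells of cluster 15, 3.5% had the highest doublet scores. The part of doublets in the 16 cells was not tested.

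Across the 22 E120 clusters of at least 50 cells, the members followed their own sum closely, with Pearson r of log2(CPM + 1) from 0.82 for KRT73 to 1.00 for KRT71. The sum contains them, so these values are high in part by construction. Between members, KRT25 and KRT71 had r = 0.99 and KRT28 and KRT73 r = 0.93. Clusters share 1 library and its background, and these correlations are descriptions over 22 clusters.

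Of 4128 genes that reached 50 CPM in a cluster, the 10 most like the sum were FABP9 (r = 0.84), CHP2 (0.82), FBP2 (0.79), PMP2 (0.78), GMPPA (0.78), CEACAM16 (0.77), GATA3 (0.76), MAB21L4 (0.75), SBSN (0.73) and KRT1 (0.70). FABP9, a fatty acid-binding protein gene, was at 6348 CPM in cluster 5, 164 CPM in cluster 3 and 0.264 CPM in the whole E90 library. It was the nearest gene to KRT27 (r = 0.90) and to KRT71 (0.84). PMP2, another fatty acid-binding protein gene, was nearest to KRT28 (0.80) and KRT73 (0.81), and CHP2, a calcium-binding protein gene, to KRT25 (0.81). The 10 genes differed between stages in various ways. KRT1 was at 2033 CPM at E90 and 44.8 CPM at E120, SBSN at 579 and 435 CPM, MAB21L4 at 24.0 and 13.4 CPM, and FBP2 at 11.7 and 9.87 CPM. GATA3 was at 165 and 176 CPM and GMPPA at 29.4 and 41.1 CPM. CHP2 was at 9.58 and 41.6 CPM, CEACAM16 at 1.52 and 5.203 CPM, and PMP2 at 0 and 8.90 CPM.

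Other listed sheath genes differed between E90 and E120 by varied amounts. Of 18 listed genes 14 were in the table and 5 reached 10 CPM, of which 2 were at least 4-fold higher at E120 and 0 lower, where 2.67% of the 6357 genes tested were higher and 10.4% lower. PADI3 was at 1.98 and 83.5 CPM, and DSG4, a desmosomal cadherin of the follicle, had 0 UMIs at E90 and 17.3 CPM at E120. With 0 UMIs at E90, the call for DSG4 was set by the filter of 10 CPM. At E120 DSG4 was among the leading genes of clusters 6 and 19, beside the shaft keratin KRT85, and not among those of clusters 5 and 3. CUX1, a transcription factor, differed by 0.73 on the log2 scale, EVPL, a cornified envelope gene, by 0.49 and GATA3 by 0.09. The median of the 5 tested genes was 0.73, against −0.24 for all genes tested. The listed genes below 10 CPM were not tested, and their log2 ratios ran from 0.25 for GJB6 to 1.90 for PADI1. Of them, TCHHL1, KRT26, KRT74, KRT72, CDSN and GJB6 had 0 UMIs at E90 and at most 1.67 CPM at E120. The filter thus decided which sheath genes were compared. GATA3 was thus at a similar level at E90 and E120. At E90 KRT25, KRT28 and KRT71 were counted at only 3.27, 2.28 and 0.264 CPM, and KRT27 and KRT73 had 0 UMIs. Whether the GATA3 UMIs at E90 came from sheath cells was not tested.

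Keratins of other follicle layers set the sheath keratins in context. Of 9 hair shaft keratins in the table, 5 were tested and all 5 were at least 4-fold higher at E120, against 2.67% of the 6357 genes. KRT35 went from 4.33 to 5847 CPM and KRT85 from 19.7 to 6796 CPM. KRT84, KRT36 and KRT33A had 0 UMIs at E90 and 251, 10.8 and 10.7 CPM at E120. With 0 UMIs at E90, a gene that reaches 10 CPM at E120 is always past 4-fold, so the filter set their calls. KRT39, KRT82, KRT40 and KRT32 stayed below 10 CPM and were not tested, with log2 ratios from 0.33 to 1.85. Of 6 companion and outer sheath genes, KRT75 was higher (0.429 and 15.5 CPM), a call also set by the filter, and KRT14 was at 759 and 551 CPM. The other 4 were at least 4-fold lower, as were 10.4% of the 6357 genes. They were KRT15, KRT17, KRT5 and SOX9, with log2 ratios of −2.16, −2.50, −2.67 and −3.25. Of 7 suprabasal genes 0 were higher and 3 were lower, KRTDAP, KRT10 and KRT1, with log2 ratios of −4.85, −5.13 and −5.47. SBSN, DSG1, DSC1 and KRT77 lay between −0.41 and −1.95. The whole-library values depend on which cells were collected, and fewer cells of a type and less RNA per cell cannot be told apart in them.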

How the data were processed

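Per the labels, cells of each stage were pooled and made into 10x 3′ libraries, and the submitters' processing notes name Cell Ranger 3.0.2. The genome build and the filters applied are not given in the sources used here. The deposited values were natural log values, ln(1 + scaled count) at 10000 per cell. The planned analysis assumed counts. Whole UMI counts were recovered by inverting the deposited values, and 100% of nonzero values were whole within 0.01, on the assumption that the smallest value of a cell is 1 UMI. The table held 20676 cells, against 19705 in the design text, and all were used.

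E120, E90 and E60 cells were clustered per library from 2000 variable genes, 30 components, 20 neighbours and Leiden resolution 1, without 40 keratin and keratin-associated genes (numpy 2.4.6, scipy 1.17.1, leidenalg 0.10.2, igraph 0.11.9, Python 3.11.15). A marker counted when in at least 10% of cells and at least 2-fold its median over clusters, and a class needed 3 markers. How markers were scored was set after seeing the data. Doublets were not removed; cells with the highest 6% of doublet scores, from 2 simulated doublets per cell, were left out as an alternative. Intervals were exact Poisson or Clopper-Pearson intervals. The code was tested on simulated data.

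The members and gene lists were chosen with earlier results of these data known. Named genes were the 5 members, the 10 genes most like their sum and the nearest of each member, and of each list the 4 largest log2 ratios and any gene past 4-fold the opposite way. Other list genes named beyond these, and the genes followed along the KRT71 order, were chosen after their values were seen. Of the 5 members, 2 (KRT25 and KRT27) were in the RefSeq list of assembly ARS1.2, used for names only. No sequence is shown.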

Additional observations from a re-analysis of the deposited data

How the results depend on the processing

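No paired analysis was possible because each stage was 1 library, and no replicate could be left out. The summed E120 level was 7875 CPM, 8050 CPM without the highest doublet scores and 4869 CPM as a mean over cells. The log2 ratio of E120 to E90 was 10.18, and 8.96 with a pseudocount of 10 CPM, 10.60 with median of ratios scaling and 9.51 as a mean over cells. The share of E120 cells with all 5 keratins was 4.52%, and 2.71% at 2 UMIs, 1.29% at 5 UMIs and 1.36% after thinning. The share of UMIs in clusters of at least 5000 CPM, those outside the epithelium left out, was 93.6%, and 93.5% at resolution 0.5, 94.7% with all genes in the clustering and 95.5% without the highest doublet scores. The level outside the epithelium was 1667 CPM, and 1618 CPM at resolution 2, 709 CPM without the highest doublet scores and 664 CPM as a median over cells. The E90 level, the E60 level and the count of 2 listed sheath genes stayed close to the main value under each alternative run.

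The log2 ratio of the last to the highest earlier group was −1.85 for KRT28 in the KRT71 order and 0.44 in the SBSN order. It was −5.27 and −0.67 for KRT73, and 2.87 and 3.61 for KRT27. Leaving out the highest doublet scores gave −1.88, −5.34 and 2.98. Both orders were chosen after seeing the data, and the cause of the difference between them was not tested. Counts of 0 at E60 and E90 are limited by depth, with E90 the shallowest library.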
